A study of Homo sapiens with 12 samples.

Results

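Untreated TOV21G cells were compared with untreated CAOV3 cells across all listed genes, using the 3 TOV21G and 3 CAOV3 control libraries among the 12 RNA sequencing libraries of a study of ascites exposure. The other 6 libraries came from the same lines after 16 h with 10% ascites, abdominal fluid formed in ovarian cancer, and are used here to estimate the spread of each gene in the fit and to see whether a difference between the lines recurred. Both control groups were grown in DMEM with 10% fetal bovine serum, both carried the genotype label WT, and neither received a treatment. The labels give ovary as the tissue of both, call CAOV3 epithelial and high grade serous, and call TOV21G epithelial and clear cell. Each tumour type is represented by a single established line, so every difference reported is a difference between these lines and not between tumour types. No label says that the 3 libraries of a line came from separate cultures, so the p-values measure the spread between these libraries, which may be technical.

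High grade serous carcinoma is thought to arise mostly from the fallopian tube epithelium, a Müllerian tissue, and its usual diagnostic markers are the transcription factors PAX8 and WT1 and the mucin CA125, encoded by MUC16. Clear cell carcinoma is linked to endometriosis and is recognised by napsin A and by a glycogen-rich cytoplasm. TOV21G is known from other work as an ARID1A-mutant line. No mutation was measured here, only RNA.

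The control libraries held between 26697609 and 32816973 reads over 19251 listed genes, and the deposited normalised counts are used as the unit throughout, given as mean ± SD over the 3 libraries of a line. The first principal component of the 6 libraries carried 96.3% of the variance of the log2 values. The median SD of a gene over libraries, on the log2 scale, was 0.060 in CAOV3 and 0.0793 in TOV21G. The TOV21G libraries differed among themselves in nuclear and very long transcripts: KCNQ1OT1 stood at 95.4, 656 and 234 in libraries 1 to 3, against 813, 749 and 697 in CAOV3. Several long genes (ARID1A, ATM, RICTOR, LAMA5 and RELN) were likewise lowest in TOV21G library 1, and the part of this in their values was not tested. Of 23 markers of leukocytes, endothelium, mesothelium, fibroblasts and red cells, 10 were listed, and the leukocyte gene PTPRC and the basal keratin gene KRT5 were not among the listed genes. The summed level of the listed leukocyte markers was 117 to 134 in CAOV3 and 8.39 to 13.0 in TOV21G, no red cell gene was listed, and fibroblast markers (LUM, PDGFRA and COL1A1) split between the lines.

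The lines differed in most of what they express. Among 17616 tested genes, 14480 passed an adjusted p of 0.05 by limma (82.2%), of which 7186 were higher in TOV21G (40.8%) and 7294 lower (41.4%). The median log2 difference, TOV21G minus CAOV3, was -0.02, and the median size regardless of sign was 0.81. A difference of at least 1 log2 unit was called for 7448 genes (42.3%), 3799 higher in TOV21G (21.6%) and 3649 lower (20.7%). The 3 libraries of 1 line lay entirely above or below those of the other for 82.6% of tested genes. Because a call is this common, gene lists are read against these percentages and sizes are given beside calls. The same contrast between the ascites libraries called 82.7% of genes. A total of 13550 genes were called under both conditions, 13533 of them in the same direction, and the difference between lines changed with ascites for 96 genes (0.545%).

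**Figure D1:**
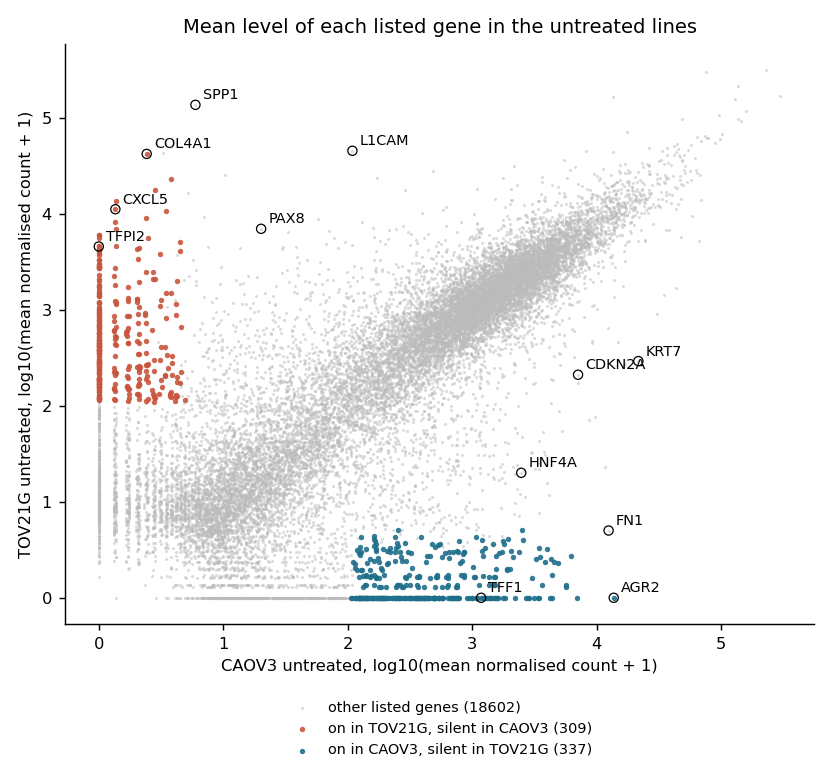
Mean normalised count of each listed gene in untreated CAOV3 (x axis) and untreated TOV21G (y axis), both as log10 of the mean plus 1, over 3 libraries each. Coloured points are the 309 genes on in TOV21G and silent in CAOV3 (red) and the 337 genes on in CAOV3 and silent in TOV21G (blue), which lie along the axes, and circles mark genes named in the text.

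A set of 646 genes was switched between the lines, taking a gene as on where every control library of a line held at least 100 normalised counts and silent where every library held under 5. TOV21G alone expressed 309 of them (1.61% of listed genes), 257 protein-coding, and for 151 no read was found in any CAOV3 control library. CAOV3 alone expressed 337 (1.75%), 294 protein-coding, with no read in TOV21G for 169. The median level in the expressing line was 418 for the TOV21G set and 372 for the CAOV3 set, and 81 and 79 genes passed 1000. Just inside the limit, 18 genes in each set had a lowest expressing library between 100 and 110, and just outside it 71 genes on in TOV21G and 87 on in CAOV3 stood between 5 and 10 in the other line. The ascites libraries met the same definition for 276 and 290 of these genes.

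SPP1, which encodes the secreted phosphoprotein osteopontin, held the largest log2 difference among the called protein-coding genes. Its CAOV3 libraries held 2.27, 9.68 and 2.97 normalised counts and its TOV21G libraries 147120.00, 127400.00 and 139280.00. The log2 difference was 14.70 (SE 0.37, adjusted p 2.14e-13), and per length of transcript SPP1 ranked 6 among all genes of TOV21G. COL4A1, a chain of basement membrane collagen IV, was at 1.13, 2.15 and 0.99 in CAOV3 and at 41870.5, 43113 and 42373 in TOV21G, a log2 difference of 14.13 (SE 0.17). RELN, the secreted glycoprotein reelin, held 5.67, 1.08 and 0 in CAOV3 and 30386, 52476 and 46542 in TOV21G. Libraries of TOV21G spread more for RELN than for SPP1 or COL4A1, and none overlapped CAOV3. ID4, an inhibitor of helix-loop-helix factors, went from 2.83 ± 2.47 to 22983 ± 687, and NID2, a nidogen that links laminin to collagen IV, from 1.82 ± 1.37 to 17723 ± 392. BICC1, an RNA-binding protein of kidney tubules, and CPS1, the first enzyme of the urea cycle, had 1 read each in the 3 CAOV3 libraries together and 13782 ± 265 and 8316 ± 224 in TOV21G. PXDN, the peroxidase that crosslinks collagen IV, QKI, a splicing regulator, and MAL, a protein of apical membrane rafts, had no read in CAOV3 and were at least 5739-fold, 5691-fold and 4194-fold higher in TOV21G. These bounds set the CAOV3 group at 3 reads over its 3 libraries, and the same floor is used for every such bound.

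On the CAOV3 side the leading genes were of varied function. AGR2, a protein disulfide isomerase of mucus-secreting cells, held 14101, 13348 and 13582 in CAOV3 and no read in TOV21G, so that it was at least 13636-fold higher in CAOV3. ANXA10, an annexin of gastric epithelium, held 6937 ± 330.02 and was at least 6916-fold higher. Among the other leading genes with no read in TOV21G, the interleukin 7 receptor IL7R was at least 4345-fold higher, the fatty acid carrier FABP4 at least 3334-fold, the mucin-type glycosyltransferase GALNT5 at least 3147-fold, the forkhead factor FOXR1 at least 2806-fold and the neuropeptide galanin (GAL) at least 2828-fold. SELENOP, the plasma selenium carrier, and H2AJ, a histone H2A variant, had 1 read each over the TOV21G libraries and 5701 ± 299 and 5647 ± 300.04 in CAOV3. Histone H2A genes resemble each other, so reads of H2AJ could have been divided among copies.

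More of the tested serous markers were higher in the line labelled clear cell than lower there, though 5 listed markers were under 100 in both lines. Of 23 markers, 15 were listed and tested, 8 were higher in TOV21G, 4 were lower and 3 were not called, and the median log2 difference was 1.32 against -0.02 over all tested genes. PAX8, the paired-box factor of Müllerian and kidney epithelium, is not particular to serous tumours. PAX8 held 18.2, 20.4 and 18.8 in the CAOV3 libraries and 6797, 7309 and 6989 in the TOV21G libraries, a log2 difference of 8.45 (SE 0.08, adjusted p 9.41e-17). WT1, the Wilms tumour factor, held 5.67, 2.15 and 5.94 in CAOV3 and 234, 219 and 231 in TOV21G (log2 difference 5.44, SE 0.32). Neither factor overlapped between the lines, and both were low in the line labelled serous. MECOM, a zinc finger oncogene often amplified in serous tumours, was expressed in both and went from 1217 ± 78 in CAOV3 to 4239 ± 169.9 in TOV21G.

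Surface and secreted markers of serous carcinoma were mixed and mostly low. Of 10 tested, 5 were higher in TOV21G and 3 lower, and 5 were under 100 in both lines. Their summed level was higher in CAOV3, at 4276 to 4666 against 2086 to 2222 in TOV21G. Mesothelin (MSLN) stood at 14.8 ± 6.33 in CAOV3 and 509.9 ± 37.1 in TOV21G, and the mucin MUC1 at 50.1 ± 4.69 and 402 ± 28.2. The phosphate transporter SLC34A2 had no read in CAOV3 and 118 ± 7.26 in TOV21G, at least 111-fold. MUC16, the CA125 gene, was low in both, at 11.3, 12.9 and 11.9 in CAOV3 and 9.76, 6.29 and 3.59 in TOV21G, with an adjusted p of 0.147. MUC16 reached an adjusted p of 0.0334 when the 6 control libraries were fitted alone. The folate receptor FOLR1 held 7.46 ± 2.86 and 19.8 ± 4.73, and HE4 (WFDC2) had 3 reads over the CAOV3 libraries and 15.7 ± 7.06 in TOV21G. Higher in CAOV3 were BCAM, a laminin receptor (3322 ± 126 against 732 ± 48.3), and CRABP2, a retinoic acid carrier (1035 ± 77.9 against 304 ± 29.6).

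CDKN2A, which encodes the cell cycle inhibitor p16, a usual marker of serous carcinoma, was higher in the line labelled serous. Its libraries held 7262, 7512 and 6439 in CAOV3 and 227, 199 and 206 in TOV21G, a log2 difference of -5.06 (SE 0.10, adjusted p 1.97e-14). CCNE1, the cyclin E gene amplified in some serous tumours, held 695 ± 36.7 and 723 ± 84 and was not called (adjusted p 0.592).

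TFPI2 and several others of the clear cell markers were higher in TOV21G, the line labelled clear cell, while 8 markers were higher in CAOV3. Of 25 markers, 24 were listed and 22 tested, 13 were higher in TOV21G, 8 lower and 1 not called, with a median log2 difference of 0.42. The protease inhibitor TFPI2 had no read in any CAOV3 library and 4716, 4509 and 4568 normalised counts in the TOV21G libraries, at least 4324-fold. The secreted glutathione peroxidase GPX3 and the cytokine IL6 also had no read in CAOV3, and were at least 254-fold and 493-fold higher in TOV21G. FXYD2, a regulator of the sodium pump, went from 29.8 ± 0.805 to 793 ± 45, RIMKLB, a glutamate ligase, from 2.85 ± 1.27 to 332 ± 25.2, and HAVCR1, the kidney injury molecule, from 1593 ± 114 to 3902 ± 87.8.

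Of the clear cell markers that did not follow the label, DPP4, a surface peptidase, held 3000.2 ± 215 in CAOV3 and 2 reads over the TOV21G libraries. The growth factor receptor MET stood at 20931 ± 693 in CAOV3 and 10579.9 ± 229.6 in TOV21G, tissue factor (F3) at 461 ± 30.0 and 148 ± 26.6, and glutaredoxin (GLRX) at 796 ± 50.5 and 367 ± 27.2. SOD2, the mitochondrial superoxide dismutase, did not differ detectably at 3077 ± 162 and 3073 ± 34.9 (adjusted p 0.994). Napsin A (NAPSA), the diagnostic protease of the type, was too low to test, at 2.27, 4.30 and 3.96 in CAOV3 and 11.9, 5.24 and 7.18 in TOV21G.

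**Figure D2:**
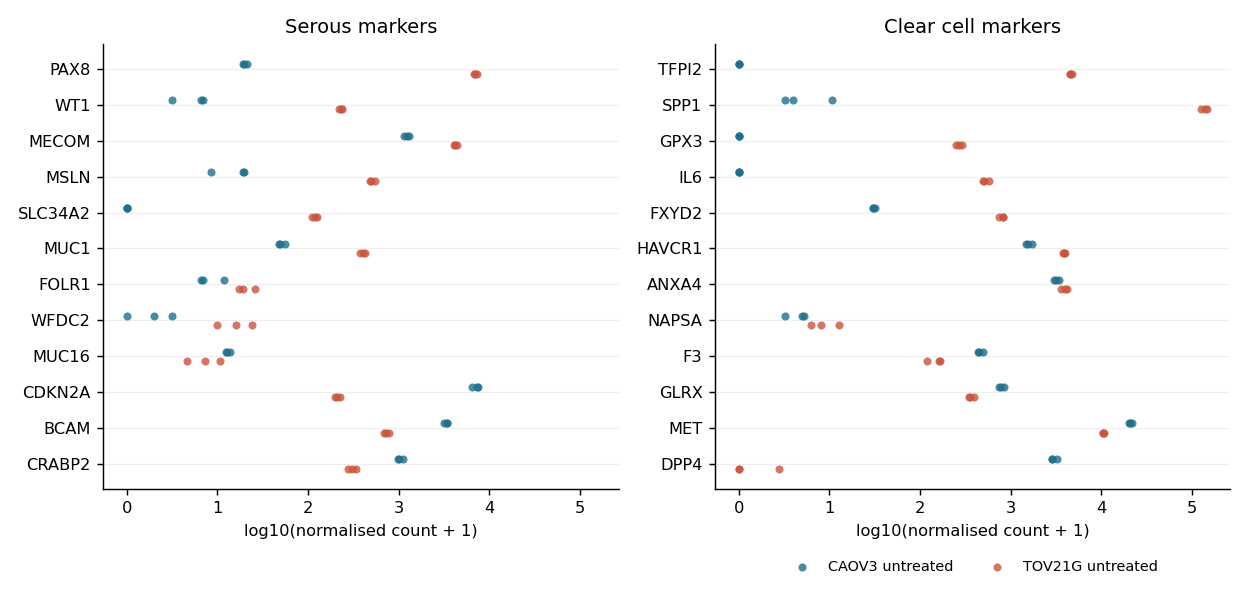
Normalised count of 12 serous (left) and 12 clear cell markers (right) in each of the 3 untreated CAOV3 libraries (blue) and the 3 untreated TOV21G libraries (red), as log10 of the value plus 1. PAX8 and WT1 lie at the low end in CAOV3 and TFPI2, GPX3 and IL6 at 0, while CDKN2A, F3 and DPP4 are higher in CAOV3.

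Each line expressed developmental transcription factors that were low or silent in the other. Of 73 lineage factors, 60 were listed and tested, 24 were higher in TOV21G, 33 lower and 3 not called, with a median log2 difference of -0.64. Among factors of the Müllerian and urogenital tract, 7 were higher in each line. Beside PAX8 and WT1, TOV21G expressed PAX2, a kidney and oviduct factor (9.61 ± 3.03 in CAOV3, 131 ± 12.2 in TOV21G), NR2F2, the nuclear receptor COUP-TFII (5001 ± 71.2 and 16697 ± 308), and SALL1, a kidney progenitor factor with no read in CAOV3 and 217 ± 14.3 in TOV21G. In CAOV3 the same group was represented by LHX1, a nephron patterning factor (1844 ± 89.2 against 14.7 ± 2.96), SIX2, a factor of nephron progenitors (1119.7 ± 53.2 against 4.44 ± 3.88), OSR2 (404 ± 5.46 against 178 ± 26.3), and NR2F1, the paralogue of NR2F2 (531 ± 14.6 against 2.56 ± 1.75). Neither line held the whole urogenital set. NR2F1 and NR2F2 differed in opposite directions.

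Factors of the endoderm and gut were more often higher in CAOV3, 9 of 17 tested against 5 lower there. HNF4A, a nuclear receptor of liver and gut, held 2417, 2488 and 2514 in CAOV3 and 17.3, 22 and 17.9 in TOV21G, a log2 difference of -6.95 (SE 0.12, adjusted p 5.56e-15). CDX2, the homeobox factor of the intestine, held 237, 272 and 270.2 in CAOV3 and no read in TOV21G, at least 259-fold higher in CAOV3. Both genes separated the lines without overlap. The pioneer factors FOXA1 and FOXA2 went from 2501 ± 57.2 and 1466 ± 46.8 in CAOV3 to 46 ± 12.7 and 17.3 ± 2.53 in TOV21G. GATA6 (551 ± 20.7 against 2.68 ± 0.578), the pancreatic factor PDX1 (245 ± 26.1 against 5.41 ± 1.02) and PROX1 (635 ± 60.1 against 24.2 ± 3.26) followed, and the intestinal homeobox gene ISX had no read in TOV21G and 102 ± 8.84 in CAOV3. FOXA3 was among the 5 factors higher in TOV21G (77.2 ± 4.09 and 525 ± 48.1).

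Neural crest, mesenchymal and epithelial factors also parted. TFAP2B, a neural crest and kidney factor, had no read in CAOV3 and 1186 ± 43.4 in TOV21G, at least 1116-fold, and its paralogue TFAP2A went from 1018 ± 14.9 to 5555 ± 94.1. POU3F2, a neural POU factor, stood at 1.80 ± 0.707 in CAOV3 and 2120.2 ± 52.9 in TOV21G, the forkhead factor FOXC2 at 2.13 ± 0.146 and 1259.7 ± 129, and TBX18, a factor of urogenital mesenchyme, at 132 ± 11.3 and 1547 ± 17.6. TWIST1, a driver of mesenchymal change, had no read in CAOV3 and was at least 504-fold higher in TOV21G, while SNAI2, another such factor, had 169 ± 27.9 in CAOV3 and 2 reads over the TOV21G libraries. PRRX1, FOXF1 and FOXD1, factors of mesenchyme, were higher in CAOV3, at 734 ± 13.6, 389 ± 34.3 and 982 ± 32.9 against 4.92 ± 1.54, 3.28 ± 1.19 and 57.9 ± 8.05. The epithelial factors ELF3 and KLF4 were higher in CAOV3 (1162 ± 49.5 and 1293 ± 17.5 against 174 ± 9.90 and 66.8 ± 12.6) and GRHL3 was higher in TOV21G (109.5 ± 5.79 and 1283 ± 26.6). The fetal RNA-binding gene LIN28B held 725 ± 45.3 in CAOV3 and no read in TOV21G.

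HOX genes, which record the position of a tissue along the body axis and pattern the Müllerian tract, were expressed from all 4 clusters in CAOV3 and mainly from HOXA in TOV21G. Of 39 genes 37 were listed and 36 tested, 8 were higher in TOV21G, 26 lower and 2 not called, with a median log2 difference of -3.21 (-3.15 with genes at 0 reads set to their bound). In the HOXA cluster 7 of 11 were higher in TOV21G and 2 lower, with a median of 0.45. In HOXB 7 of 8 tested were lower, in HOXC all 9 and in HOXD all 8, with medians of -4.12, -4.25 and -2.71. HOXA10, which patterns the uterus, held 1564, 1597 and 1502 in CAOV3 and 5691, 5536 and 5814 in TOV21G (log2 difference 1.87, SE 0.05). HOXA5, HOXA6 and HOXA7 were higher in TOV21G by 1.29, 1.22 and 1.33 on the log2 scale. Of genes chosen after their values were seen, HOXA9, the tubal member of the cluster, held 1429.6 ± 11.1 and 1483 ± 36.1 (adjusted p 0.239), HOXA13 at the posterior end held 242 ± 23.4 in CAOV3 and 8.42 ± 4.74 in TOV21G, and HOXB7 was the HOXB gene higher in TOV21G (700.4 ± 43.3 and 836 ± 74). HOXC10 held 1772, 1766 and 1703 in CAOV3 and 29.3, 25.2 and 17 in TOV21G, HOXB8 1472 ± 69.8 and 30.2 ± 5.33, and HOXD10 449 ± 16 and 7.43 ± 4.49. Many HOX genes overlap a neighbour or an antisense gene in the annotation, so single members carry some uncertainty.

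**Figure D3:**
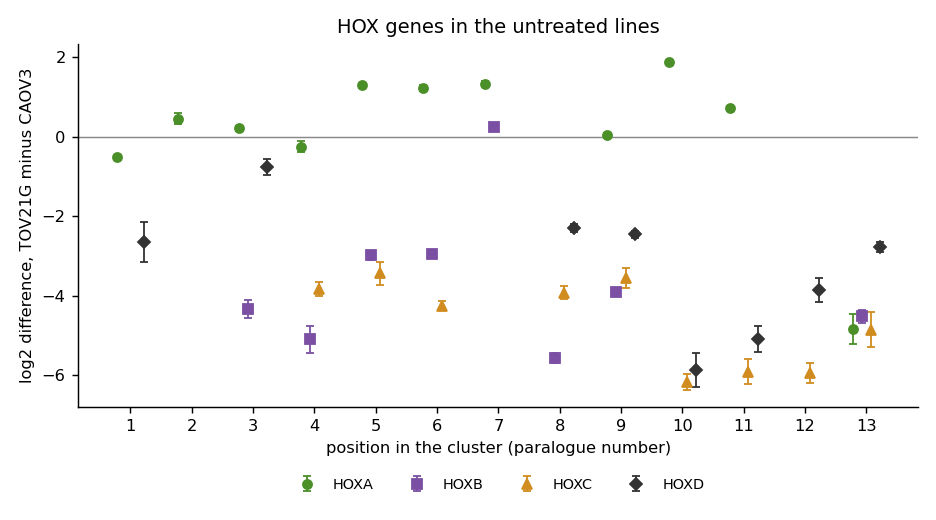
Log2 difference (TOV21G minus CAOV3, y axis) of each of the 36 tested HOX genes by paralogue number (x axis), with bars for the standard error, in the 4 clusters. HOXA genes lie near or above 0 except HOXA13, and all HOXC and HOXD genes and all HOXB genes except HOXB7 lie below 0.

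Genes of digestive epithelium were all higher in CAOV3. Of 29 genes 20 were listed and tested, all 20 were lower in TOV21G and 14 were on in CAOV3 alone, with a median log2 difference of -8.56. Their summed level was 36561 to 39146 in the CAOV3 libraries and 11.9 to 33.2 in the TOV21G libraries. CDH17, the cadherin of intestinal epithelium, held 6105, 5869.8 and 6797 in CAOV3 and 0, 4.19 and 0.897 in TOV21G, and villin (VIL1), the bundler of microvillus actin, 4132, 3986 and 4750.5 and 0, 1.05 and 3.59. TFF1, a trefoil peptide secreted with gastric mucus, held 1254, 1207 and 1068 in CAOV3 and no read in TOV21G, at least 1173-fold higher in CAOV3. Among genes chosen after their values were seen, the mucin MUC13 and the adhesion protein CEACAM6 also had no read in TOV21G and were at least 1415-fold and 1316-fold higher in CAOV3. This list was known to separate the lines when it was chosen, so its count describes the lines and is not independent evidence of a direction.

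Both lines expressed epithelial and mesenchymal genes, in different combinations. Of 37 epithelial genes 30 were tested, 9 were higher in TOV21G and 18 lower, with a median of -0.78, and the summed level of the keratin genes went from between 152056 and 153035 in the CAOV3 libraries to between 10937 and 12311 in the TOV21G libraries. KRT7 held 22073, 21306 and 21360.4 in CAOV3 and 326, 266 and 285 in TOV21G (log2 difference -6.20, SE 0.07), and KRT19 16839 ± 318 and 274 ± 7.89. Chosen after their values were seen, KRT8 and KRT18, the paired keratins of simple epithelium, stood at 66468 ± 562 and 47679 ± 404 in CAOV3 and at 5287 ± 385 and 5738 ± 272 in TOV21G, so that they remained expressed there. E-cadherin (CDH1) held 455, 389 and 429.5 in CAOV3 and 17.3, 6.29 and 16.2 in TOV21G, a log2 difference of -5.01 (SE 0.32). Claudins, the strand proteins of tight junctions, did not share a direction: 7 of 14 were higher in TOV21G and 6 lower. CLDN1 went from 1776 ± 62.4 in CAOV3 to 23626 ± 1227 in TOV21G, CLDN4 from 3853 ± 258 to 30.1 ± 4.41, and CLDN10 from 709 ± 45 to no read. CDS1, a lipid enzyme of epithelial signatures, and the junction protein F11R were higher in TOV21G (76.1 ± 11.3 and 256 ± 21.6 against 673 ± 12.2 and 785 ± 31.9).

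Of 36 mesenchymal genes 30 were tested, 12 were higher in TOV21G and 16 lower, with a median of -0.96. Fibronectin (FN1) held 12711, 12043 and 12576 in CAOV3 and 3.25, 5.24 and 3.59 in TOV21G, a log2 difference of -11.29 (SE 0.16, adjusted p 1.64e-15). Collagen I ran the other way: COL1A2 held 2.27, 2.15 and 2.97 in CAOV3 and 10954, 10509 and 11099.6 in TOV21G, a log2 difference of 11.62 (SE 0.22), and COL1A1 308 ± 20.2 and 1945 ± 109.5. No library of one line overlapped the other for any of these genes. Lumican (LUM), a collagen-binding proteoglycan, and TIMP3, a metalloprotease inhibitor, had no read in TOV21G and were at least 4183-fold and 1818-fold higher in CAOV3, and the receptor PDGFRA held 1005 ± 62.2 in CAOV3 and 3 reads over the TOV21G libraries. Smooth muscle actin (ACTA2) had 1 read over the CAOV3 libraries and 1198 ± 98.1 in TOV21G, and the collagen crosslinker LOXL2 went from 1036 ± 40.4 to 9979 ± 566. Vimentin (VIM), chosen after its values were seen, was high in both, at 127776 ± 29.4 in CAOV3 and 157607 ± 10853 in TOV21G.

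Basement membrane genes were higher in TOV21G as a group. Of 36 genes 33 were tested, 27 were higher, 5 lower and 1 not called, with a median log2 difference of 1.52 and 23 genes higher by at least 1. Beside COL4A1, its partner chain COL4A2 held 12.5, 6.45 and 8.91 in CAOV3 and 26159.8, 25336 and 25867 in TOV21G, a log2 difference of 11.33 (SE 0.16). COL4A5, a chain of kidney basement membrane, had no read in CAOV3 and was at least 2629-fold higher in TOV21G. Laminin and integrin genes followed in 9 of 11 and 9 of 12 cases. The exceptions included LAMA5, an epithelial laminin chain (13689, 13101 and 12894 in CAOV3 and 2539.7, 3611 and 3142 in TOV21G), ITGA6, a laminin receptor chain (6136 ± 331 against 1717 ± 40.9), ITGA2, a collagen receptor chain (4525 ± 184 against 1346 ± 116), and COL17A1, a collagen of hemidesmosomes (528 ± 24.8 against 91.9 ± 23.5).

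Cell cycle regulators differed gene by gene, and proliferation genes shared no direction. Of 41 tested cell cycle genes 18 were higher in TOV21G and 17 lower, with a median of 0.04, and among the 15 proliferation genes 5 were higher, 6 lower and 4 not called. Of the D cyclins, which start the cycle with CDK4 or CDK6, CCND1 and CCND2 differed in opposite directions. CCND1 held 24297, 24203 and 24787 in CAOV3 and 5580.1, 5200.1 and 5410.3 in TOV21G, so that it remained expressed there. CCND2 had no read in CAOV3 and 1325, 1370.3 and 1524 in TOV21G, at least 1323-fold higher in TOV21G. The CDK inhibitors next to each other on chromosome 9 moved together, with CDKN2B at 3671 ± 179 in CAOV3 and 52.9 ± 6.53 in TOV21G beside the CDKN2A values given above. Another inhibitor of the same family, CDKN2C, was higher in TOV21G (507 ± 52.9 and 4629 ± 265). CDKN1A, the cell cycle inhibitor p21, held 448, 397 and 378 in CAOV3 and 5888, 5489 and 5555 in TOV21G, without overlap (log2 difference 3.79, SE 0.06). MYC held 191, 169 and 199.9 in CAOV3 and 2956, 2429 and 2652 in TOV21G, a log2 difference of 3.84 (SE 0.08).

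Genes of DNA repair differed in both directions. Of 9 tested mismatch repair genes 2 were higher in TOV21G, 5 lower and 2 not called, with a median of -0.25. None of these was higher by at least 1 log2 unit, and the 2 lower by at least 1 are not reported here. In mismatch repair, PMS2 and MSH6, subunits of the repair complexes, did not differ detectably, with PMS2 at 827 ± 67.4 in CAOV3 and 818 ± 33.8 in TOV21G (adjusted p 0.821) and MSH6 at 4289.7 ± 188 and 4233 ± 221 (adjusted p 0.713). PMS1 and MLH3 were lower in TOV21G (1308 ± 98.2 and 703 ± 30.5 against 1046 ± 7.43 and 594 ± 73.2), and MSH3 and the exonuclease gene EXO1 were higher (914 ± 50.1 and 1413 ± 75.2 against 1585 ± 88.6 and 1579.6 ± 34.5). Of 24 tested genes of homologous recombination 11 were higher in TOV21G and 8 lower, with a median of -0.01. The largest differences there were in NBN (7131 ± 335 in CAOV3 and 1572 ± 27 in TOV21G), XRCC2 (2522 ± 116 and 685 ± 63.5) and BRIP1, a BRCA1-bound helicase, which was higher in TOV21G (321 ± 17.2 and 974 ± 20.3).

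ARID1A, the subunit of the SWI/SNF chromatin remodeller that is often mutated in clear cell carcinoma, was lower in TOV21G but still expressed. It held 5822, 5828 and 5424 in CAOV3 and 1529, 2121 and 1804 in TOV21G, a log2 difference of -1.66 (SE 0.11, adjusted p 5.72e-09), and the lines did not overlap. Its paralogue ARID1B was higher, at 3347, 3417 and 3432 and 5005, 5844 and 5676 (log2 difference 0.69, SE 0.05). Of 26 tested subunit genes 9 were higher in TOV21G, 13 lower and 4 not called, with a median of -0.10, and 8 differed by at least 1 log2 unit. The ATPase SMARCA4 went from 14366 ± 180.02 to 10386 ± 168 and its paralogue SMARCA2 from 1347 ± 54.8 to 2115 ± 84.8. Beside ARID1A, the subunits SMARCD3 (708 ± 23.1 against 219 ± 28.3), DPF1 (282 ± 19.2 against 122 ± 20.8), DPF3 (16.3 ± 6.35 against 3.29 ± 1.94) and BICRA (1089.6 ± 20.6 against 459.8 ± 64.3) were lower by at least 1. SMARCE1 (109 ± 3.65 and 301 ± 22.1), BCL7C (736 ± 92 and 1693 ± 71.5) and BICRAL (398 ± 38.9 and 862 ± 109) were higher by at least 1. The genes not called were SMARCC2, ACTL6A, ARID2 and PBRM1.

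Ligands of the EGF receptors were mostly higher in TOV21G. Of 7 tested ligands of the EGF family 6 were higher in TOV21G. Neuregulin (NRG1), a ligand of ERBB3 and ERBB4, had 1 read over the CAOV3 libraries and 4484, 4697 and 4701 in TOV21G. Epiregulin (EREG) went from 2102 ± 64.8 to 14165 ± 131, TGFA from 3865 ± 65.6 to 15139 ± 592 and betacellulin (BTC) from 8.82 ± 1.97 to 322 ± 15.7, while HBEGF was lower (200.1 ± 15.2 against 149 ± 2.75). Among the receptors ERBB3 was lower in TOV21G (1654 ± 71.9 against 342 ± 6.57), and, chosen after their values were seen, ERBB2 was higher (1032 ± 24.8 and 3212 ± 128) and EGFR was not called (5581 ± 106 and 5041 ± 585, adjusted p 0.08). Of 21 genes that report ERK activity 14 were lower in TOV21G and 5 higher, with a median of -0.93. The phosphatase DUSP4 held 5406 ± 92.4 in CAOV3 and 549 ± 41.4 in TOV21G, and the feedback inhibitor SPRY1 1809 ± 47.8 and 490.4 ± 32.5. The nuclear phosphatase DUSP5 ran the other way (820.4 ± 21.1 and 4343 ± 251), as did the survival gene IER3 (2395 ± 53.7 and 9101 ± 738).

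Of 20 tested PI3K and AKT genes 8 were higher in TOV21G and 11 lower, with a median of -0.24. The catalytic subunit PIK3CD went from 81.8 ± 10.2 in CAOV3 to 1539 ± 69.1 in TOV21G and the regulatory subunit PIK3R3 from 349 ± 15.9 to 1885 ± 119, while lower genes were the lipid phosphatase INPP4B (2526 ± 94.6 against 892 ± 28.3) and RICTOR (3604, 3630.3 and 3776 in CAOV3 and 1231, 1693 and 1733 in TOV21G). Other receptor kinases were near an even split, 13 of 28 higher and 14 lower. The ephrin receptors EPHB6 (9628 ± 125 against 75.4 ± 7.94) and EPHA4 (1243 ± 40.6 against 85.9 ± 5.53) and the Wnt receptor ROR2 (425 ± 16.7 against no read) were higher in CAOV3, and ROR1 (881 ± 64.6 and 2521 ± 53.9), EPHB2 (559 ± 20.9 and 1433 ± 104), DDR1 (816 ± 22.9 and 2058 ± 47.5) and FGFR4 (1243 ± 79.3 and 2746 ± 90.6) were higher in TOV21G.

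Inflammatory cytokines and chemokines were mostly higher in TOV21G. Of 20 tested genes 15 were higher in TOV21G and 5 lower, with a median log2 difference of 3.57, the highest median among the 29 lists. CXCL5, a chemokine that attracts neutrophils, held 0, 1.08 and 0 in CAOV3 and 11557, 11139 and 11039 in TOV21G, and CXCL1 1.13, 0 and 0 and 7409, 6606 and 6909. Each had a single read over the 3 CAOV3 libraries. Their neighbours in the same cluster on chromosome 4, chosen after their values were seen, were also higher in TOV21G: CXCL6 had 3 reads over the CAOV3 libraries and 476 ± 51.3 in TOV21G, CXCL2 went from 7.38 ± 2.84 to 489.6 ± 21.8, CXCL3 from 5.78 ± 3.85 to 333 ± 5.20 and CXCL8 from 11 ± 0.813 to 173 ± 6.34. TNF had no read in CAOV3 and 293, 269 and 270.1 in TOV21G, at least 261-fold. Lower in TOV21G were IL11 (573 ± 37.9 against 40.9 ± 6.53), CX3CL1 (431 ± 27.4 against 17.4 ± 4.74) and CXCL16 (319 ± 35.6 against 230.1 ± 12.5). CXCL1, CXCL2 and CXCL3 are close copies, so reads could have been divided among them.

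The promoters of these neighbouring chemokines are shown because the genes differed together. They are the 120 bases before the transcription start in the RefSeq table for GRCh38.p14, written 5′ to 3′ on the strand of the gene, with matches in capitals.
CXCL1 (chr4:73869273-73869392, plus strand): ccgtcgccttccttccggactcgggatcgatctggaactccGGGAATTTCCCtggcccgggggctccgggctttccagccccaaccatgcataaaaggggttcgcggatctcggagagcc
CXCL2 (chr4:74099196-74099315, minus strand): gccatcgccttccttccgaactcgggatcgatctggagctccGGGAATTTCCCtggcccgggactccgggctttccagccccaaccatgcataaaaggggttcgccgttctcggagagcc
CXCL3 (chr4:74038690-74038809, minus strand): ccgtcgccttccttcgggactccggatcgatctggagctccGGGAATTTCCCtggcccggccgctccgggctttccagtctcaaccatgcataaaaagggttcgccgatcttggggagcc
CXCL5 (chr4:73998678-73998797, minus strand): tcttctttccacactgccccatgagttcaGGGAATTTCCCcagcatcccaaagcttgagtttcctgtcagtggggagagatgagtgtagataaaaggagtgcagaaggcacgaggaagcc
CXCL6 (chr4:73836558-73836677, plus strand): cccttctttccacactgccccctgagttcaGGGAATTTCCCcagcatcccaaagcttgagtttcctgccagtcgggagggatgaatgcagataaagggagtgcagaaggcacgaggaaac
CXCL8 (chr4:73740449-73740568, plus strand): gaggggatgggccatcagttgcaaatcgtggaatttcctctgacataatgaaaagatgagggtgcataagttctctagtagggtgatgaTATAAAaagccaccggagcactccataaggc
The capitals in the first 5 promoters mark the run GGGAATTTCCC, which matches the NF-kB motif searched (GGGA, any 2 bases, then TTCC) on both strands over the same 11 bases and begins 79, 78, 79, 91 and 90 bases before the start. The motif, searched on both strands, was found in 564 of 35116 promoters in the table (1.61%), each read from 250 bases before the start to 50 after it. The CXCL8 window held no exact match, though its stretch tggaatttcc differs from the motif only in the first base. Its capitals mark TATAAA, 31 bases before the start, a motif found in 4049 of 35116 promoters (11.5%). The first 5 windows held cataaa or gataaa, which differ from TATAAA only in the first base. The genes are paralogues with shared ancestry, so the matches are not independent of each other, and a match shows letters and not binding.

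Antigen presentation and interferon-stimulated genes were more often higher in TOV21G. Of 35 tested genes 25 were higher, 7 lower and 3 not called, with a median of 1.74. HLA-B held 169, 182 and 154 in CAOV3 and 4598, 3772 and 4065 in TOV21G, the invariant chain CD74 0, 1.08 and 2.97 and 1008, 876 and 889, and the immunoproteasome gene PSMB9 19.7 ± 8.68 and 464 ± 89.4. HLA genes differ in sequence between people, so reads of one line can map less well, and HLA levels are uncertain. The antiviral gene MX1 went from 7.34 ± 2.25 to 297 ± 34.2. Of the list, 4 genes with a difference of at least 1 ran the other way, among them the guanylate-binding gene GBP2, with 746 ± 83.1 in CAOV3 and 1 read over the TOV21G libraries, OAS1 (439 ± 45.2 against 72.3 ± 7.38) and BST2 (2165 ± 63 against 885 ± 89.2).

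Hypoxia, glycolysis and redox genes were divided. Of 33 hypoxia and glycolysis genes 13 were higher in TOV21G and 17 lower, with a median of -0.28. The mitophagy gene BNIP3 held 2.27, 0 and 1.98 in CAOV3 and 2535, 2340.03 and 2565 in TOV21G (log2 difference 10.18, SE 0.50), the mTOR inhibitor DDIT4 1095 ± 35 and 18167 ± 862, VEGFA 988 ± 37.9 and 5973 ± 36.3, and PFKFB3, which raises glycolytic flux, 3612 ± 106 and 24234 ± 864. The carbonic anhydrases CA9 and CA12, also hypoxia genes, were lower in TOV21G (74.5 ± 7.85 and 2214 ± 130.03 against 1.78 ± 1.65 and 269 ± 13.8). Of 28 tested genes of glutathione and the NRF2 response 10 were higher and 17 lower, with a median of -0.62. NQO1, a quinone reductase, held 5468 ± 82.8 in CAOV3 and 36326 ± 3235 in TOV21G, and HMOX1, heme oxygenase, 162 ± 4.17 and 3298 ± 252. GCLM, the modifier subunit of the enzyme that limits glutathione synthesis, held 1191 ± 72.2 and 3747 ± 126. Its catalytic subunit GCLC, chosen after its values were seen, ran the other way, with means of 2127 in CAOV3 and 896 in TOV21G. The aldo-keto reductases, targets of the same factor, were higher in CAOV3: AKR1C1 went from 1036 ± 22.9 to 7.33 ± 5.31, AKR1C3 from 1304 ± 20.8 to 102 ± 11.7, and AKR1B10 from 570.3 ± 76.1 to 1 read over the TOV21G libraries. AKR1C genes are near copies of each other, and their single values are uncertain.

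Surface antigens used or proposed as therapy targets were mostly higher in TOV21G, 16 of 23 tested against 5 lower, with a median of 1.31. L1CAM, an adhesion molecule, held 110.1, 99 and 115 in CAOV3 and 46702, 45233 and 45404 in TOV21G, a log2 difference of 8.72 (SE 0.10, adjusted p 2.99e-16). The embryonic claudin CLDN6 stood at 6.60 ± 4.93 and 255 ± 7.99. CDH6, a kidney cadherin, was the reverse, with 638 ± 64.3 in CAOV3 and 2 reads over the TOV21G libraries.

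In coagulation, 8 of 15 tested genes were higher in TOV21G and 7 lower. The fibrinogen chains FGB and FGA, made by the liver, held 83 ± 19.4 and 35.2 ± 6.83 in CAOV3 and 4484 ± 327 and 468 ± 36.1 in TOV21G, and urokinase (PLAU) went from 581 ± 25.5 to 11109 ± 620.4. TFPI, F2RL1 and PROCR were higher in CAOV3, at 7346 ± 455, 6869 ± 78.5 and 4800.1 ± 239.9 against 2704 ± 156, 2212 ± 110.1 and 1614 ± 153.

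Some of the switched genes lay side by side. Neighbouring listed genes that were all below 5 in every library of a line formed 10 runs in which at least 3 genes were on in the other line. The longest was silent in CAOV3 and covered 14 listed genes on chromosome 21, chr21:9975017-16645065 in GENCODE 29 on GRCh38 (6.67 Mb). Its first gene, a pseudogene with means of 2.20 in CAOV3 and 6.69 in TOV21G, ended at 10119309. The next listed gene, CYP4F29P, began only at 13843133. The run held 13 genes without a read in any CAOV3 control library, all between 13843133 and 16645065. Of its genes the heat shock protein gene HSPA13 held 2702, 2780.4 and 2827 in TOV21G, the nuclear receptor corepressor NRIP1 4116, 4102 and 4230.4, the ubiquitin protease USP25 3068, 2894 and 3002 and the noncoding RNA MIR99AHG 156, 198 and 188. None had a read in a CAOV3 control or ascites library. The next listed gene beyond the run, the adhesion receptor CXADR, did not differ detectably, at 1623, 1579 and 1707 in CAOV3 and 1519, 1524 and 1608 in TOV21G (adjusted p 0.132). DNA was not measured, so a lost segment and a silenced segment cannot be told apart.

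**Figure D4:**
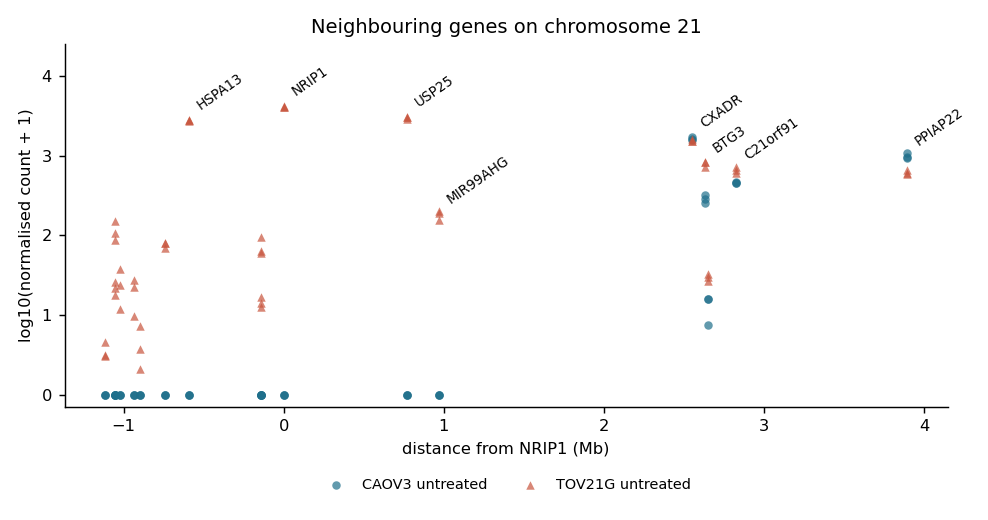
Normalised count (log10 of the value plus 1, y axis) of listed genes around NRIP1 on chromosome 21 by distance from NRIP1 (x axis, Mb) in each untreated CAOV3 library (blue circles) and TOV21G library (red triangles). The plotted stretch runs from CYP4F29P to PPIAP22 and leaves out the gene furthest left in the run, which had reads in CAOV3. Within it the CAOV3 points from CYP4F29P to MIR99AHG lie at 0, and CXADR, BTG3, C21orf91 and PPIAP22 are expressed in both lines.

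Another run on the same chromosome was silent in TOV21G and held ABCG1, TFF3, TFF2 and TFF1 (chr21:42009194-42366594), the trefoil genes of the digestive list. A run on chromosome 12 held PTPRB, PTPRR, TSPAN8 and LGR5 (chr12:70515866-71586310), also silent in TOV21G, and includes both a digestive tetraspanin and the intestinal stem cell receptor. The chemokine genes CXCL6, CXCL1 and CXCL5 formed a run silent in CAOV3 (chr4:73836497-73998779) between CXCL8 and CXCL3. A run of 9 MAGEA and CSAG genes on the X chromosome was silent in TOV21G (chrX:152698752-152769747). By chromosome, the median log2 difference over tested genes ranged from -0.46 on chromosome 7 and -0.45 on chromosome 20 to 0.37 on chromosome 10.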

How the data were processed

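Per the submitters' processing notes, the tools named were Trim Galore, cutadapt, STAR, HTSeq and DESeq; their versions, the genome build and strandedness are not given in the sources used here. The authors deposited 1 signal per gene and library, a normalised read count: every value was a whole multiple of a step per library (100% whole, within 0.001 reads), and the steps matched size factors of DESeq2 1.42.0 over all 12 libraries. Symbols came from a gene name table (19087) or GENCODE 29 (136), and 28 identifiers had none.

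The main test was limma 3.58.1 (R 4.3.3, trended prior) on log2(value + 1), a scale that understates differences of low genes, with 4 group means over 12 libraries and at least 10 in at least 3 libraries. P-values are two-sided and adjusted by Benjamini-Hochberg over 17616 genes. The design had been written for counts, so edgeR 4.0.16 and DESeq2 were run on the recovered reads as alternatives and called 14581 and 14169 genes. Scripts were tested on simulated data. Replicate pairs differed by more than counting noise (chi-square per degree of freedom 1.81 to 19.4).

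Members and the 29 lists (801 symbols) were chosen with earlier results of these data known. Named genes are the 10 protein-coding genes with the largest log2 difference each way (mean of at least 100 in the higher line, libraries not overlapping), the 10 switched genes highest per length each way, serous, clear cell, mismatch repair and SWI/SNF members, lineage factors called by at least 1 log2 unit, and up to 4 genes each way in every other list. Chromosome Y genes and XIST are left out, and some genes that the rule or the lists hold are not reported here.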

Additional observations from a re-analysis of the deposited data

Results flagged for a closer look

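For several genes in the lists, the difference between the lines changed with ascites, by limma's test of the interaction at an adjusted p under 0.05. Each value below is the log2 difference between the lines in the ascites libraries minus that in the control libraries. The fibrinogen chains changed most: FGB by -3.81 and FGA by -3.06. FGB stood at 83 in untreated CAOV3 and 1153 in CAOV3 with ascites, against 4484 and 4468 in TOV21G, and FGA at 35.2 and 300.4 against 468 and 468. AGR2 changed by 2.17, from no read in the TOV21G controls to a mean of 3.12 with ascites, a level at which the value depends on the pseudocount. Among epithelial and lineage genes MUC1 changed by -1.19, ELF3 by 0.75, CLDN7 by 0.75, TBX18 by 0.62 and KRT8 by -0.41. Of the interferon genes NLRC5 changed by -1.03, IFITM1 by -1.02 and IFITM3 by -0.78. AREG changed by -0.62, SPRED3 by -0.67, PFKFB3 by -0.38 and VEGFA by -0.37. Over all tested genes such a change was called for 0.545%.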

How the results depend on the processing

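The number of genes called between the untreated lines, 14480, ranged from 11990 with a filter of 50 in 3 libraries to 15203 with no filter, and the control libraries alone gave 13780. The counts of switched genes depend on the limits: with on at 50 and silent under 10 they were 487 for TOV21G and 596 for CAOV3, and with on at 500 and silent under 1 they were 69 and 61. TMM scaling left them at 309 and 337. Leaving out 1 library at a time gave 13992 to 14266 called genes, 6907 to 7068 higher and 7013 to 7198 lower in TOV21G, and 7344 to 7405 with a difference of at least 1 log2 unit (3711 to 3825 higher, 3566 to 3693 lower). It gave 311 to 321 and 341 to 353 switched genes, and 14052 to 14345 calls between the ascites groups.

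Same-numbered control libraries did not deviate together (correlations 0.02, -0.07 and 0.09 over 11043 genes). The best match was the TOV21G control of the same number for 2 of 3 CAOV3 controls. With correlations this small, that match does not show whether the numbers mark pairs. With the replicate number as a block 14379 genes were called, 7134 higher and 7245 lower in TOV21G, 7450 by at least 1 log2 unit, and 14460 between the ascites groups.

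Over all alternatives no gene named here reversed. CRYAB, AMACR, SMARCB1, SMARCD2, RARG and KCNQ1OT1 lost their call under at least 1 alternative, and the cause was not tested. With a filter of 50, the Wnt and Notch genes lower in TOV21G numbered 9 in place of 14 and the other cell type markers 3 in place of 5, because fewer genes were tested.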

Other observations

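Of 17 tested nuclear receptor genes 9 were lower in TOV21G, 5 higher and 3 not called, with a median of -0.18. Over all tested genes 41.4% were lower in TOV21G and 40.8% higher. The thyroid hormone receptor THRB held 1486 ± 45.4 in CAOV3 and 2 reads over the TOV21G libraries. NR5A2, a receptor of liver and pancreas, and the retinoic acid receptor RARB had no read in TOV21G and were at least 401-fold and 362-fold higher in CAOV3. The glucocorticoid receptor NR3C1 went from 2495 ± 101.03 in CAOV3 to 422 ± 17.6 in TOV21G, while PPARA was higher in TOV21G (234 ± 2.40 and 820.4 ± 29.7). Of 27 tested Wnt and Notch genes 10 were higher in TOV21G and 14 lower. The intestinal stem cell receptor LGR5 had 234 ± 19.3 in CAOV3 and no read in TOV21G, the Wnt inhibitor RNF43 869 ± 52.1 and 7.34 ± 2.85, and the secreted inhibitor DKK1 24486 ± 246 and 5306 ± 496. TOV21G instead expressed the receptor FZD10 and the ligand WNT7A, neither with a read in CAOV3, at 573 ± 20.7 and 187 ± 18.7, and the secreted inhibitor SFRP1 at 2517 ± 124 against 1.71 ± 1.53.

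Of 33 cancer-testis genes, normally confined to the germ line, only 8 were listed and tested, and 7 of these were lower in TOV21G. The tested genes included 5 MAGE genes, all lower in TOV21G. MAGEA12 held 1244 ± 44.3 and CSAG1 492 ± 22.2 in CAOV3, with no read in TOV21G, whereas PRAME was higher in TOV21G (967 ± 28.7 and 2643 ± 156). MAGEA genes are near copies of each other and share reads, so they are not independent cases. Of 11 tested imprinted genes 3 were higher in TOV21G, 7 lower and 1 not called, with a median of -0.71. PEG10 held 13386, 13307 and 14166 in CAOV3 and 159706, 167604 and 170085 in TOV21G, and IGF2 held 2594, 2608 and 2470.3 and 3.25, 2.10 and 3.59, without overlap in either case. GRB10 and MEST were also lower in TOV21G (4970.4 ± 79.6 and 5411 ± 74.2 against 356 ± 26.4 and 457 ± 36.4). Genes of IGF2 and MEST overlap others in the annotation, so their levels are less certain.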
